A study of Homo sapiens with 6 samples.

Results

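The genes of glycolysis and of the cellular response to low oxygen were followed in ARPE-19 cells, an established human retinal pigment epithelium (RPE) line, with and without POLDIP2. The members were taken from a list of 38 genes and found by symbol among the 37902 genes of the expression table. Of these, 37 had a row and passed the filter on low values, a mean of at least 10 normalised counts, and LDHA was not analysed here. RNA-seq was made from 6 libraries, 3 of wild type (WT) ARPE-19 and 3 of the POLDIP2 KO line, all collected on day 3 under regular maintenance with no further treatment, and all numbered as biological replicates 1 to 3. POLDIP2 KO cells were made from ARPE-19 by lentiviral delivery of a guide RNA against the POLDIP2 coding sequence with CRISPR/Cas9, followed by antibiotic selection. The sources used here do not describe the line as grown from a single cell. They also describe no WT cells given a control virus and selection. Knockout, transduction and selection therefore cannot be told apart between the lines. Values are reads per gene divided by a size factor of each library, called normalised counts below. Differences are on the scale of log2(normalised count + 1) and were fitted with limma across the 14684 genes that passed the filter. A gene is called where its Benjamini-Hochberg adjusted p is below 0.05.

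Glycolysis splits glucose to pyruvate, which is either burned in mitochondria or reduced to lactate and exported. The transcription factors HIF-1 and HIF-2 couple this pathway to oxygen: prolyl hydroxylases mark their alpha subunits for destruction while oxygen is present, and in its absence the factors accumulate and switch on glucose transporters, glycolytic enzymes, pH regulators and mitophagy receptors. In the eye, glucose that crosses the RPE feeds the photoreceptors, and a shift of RPE cells towards their own glycolysis is known to leave less for the retina.

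POLDIP2, the targeted gene, stood at 3919, 4827 and 4798 normalised counts in WT and at 1063, 1248 and 1143 in POLDIP2 KO, so its transcript was reduced but present in the KO libraries (log2 fold change -1.97, limma with Benjamini-Hochberg adjustment, adjusted p = 0.00961). The libraries held 31532797 to 45795509 recovered reads, and no member fell to 3 reads or fewer in any library. The replicate 1 libraries stood apart in both lines. In them, 5 genes were at 100 or more normalised counts and at 0 in the other 4 libraries, and 4 genes showed the opposite, while no gene did either for replicate 2 or 3. The labels give only the number of each replicate, not a shared day or batch. Of 11 RPE markers, KRT8 and KRT18 were abundant (29007 to 48481 normalised counts), whereas RPE65 and TTR were at 0 in every library. The 9 that passed the filter had log2 fold changes of KO over WT from -0.64 to 0.78, with a median of -0.024. The study described BEST1, PMEL, RDH5 and RDH10 as similar between the lines.

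HIF dimers bind DNA at a short core, ACGTG or GCGTG. The 250 bases before the RefSeq start site (GRCh38.p14) were available for 34 of the 37 members, all but BNIP3L, SLC2A3 and NDRG1. The following stretches belong to the 8 members called by the contrast of replicate 1 with replicates 2 and 3 described later: CA9, P4HA2, P4HA1, TPI1, SLC16A3 and BNIP3, which were higher in replicate 1, and ANGPTL4 and CA12, which were lower there. They are written 5′ to 3′ on the strand of the gene, and capitals mark either core, read on this strand or on the opposite one. The run CACGTG holds ACGTG on both strands and was counted as 2 matches. Bases that overlap an annotated exon were left out, except for CA9, P4HA2, P4HA1 and TPI1, where exons cover the match or leave no free run of 30 bases, and 30 bases are shown. The stretches are chr9:35673898-35673927 (+) for CA9, chr5:132227092-132227121 (-) for P4HA2, chr10:73096935-73096964 (-) for P4HA1, chr12:6867501-6867530 (+) for TPI1, chr17:82228185-82228396 (+) for SLC16A3, chr10:131981968-131982173 (-) for BNIP3, chr19:8363905-8364154 (+) for ANGPTL4 and chr15:63381847-63382096 (-) for CA12.
CA9: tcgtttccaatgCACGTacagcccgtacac
P4HA2: tggaagagcgggaaggtcctggcccagagc
P4HA1: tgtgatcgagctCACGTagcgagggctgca
TPI1: tatataagtgggcagtggccgcgactgcgc
SLC16A3: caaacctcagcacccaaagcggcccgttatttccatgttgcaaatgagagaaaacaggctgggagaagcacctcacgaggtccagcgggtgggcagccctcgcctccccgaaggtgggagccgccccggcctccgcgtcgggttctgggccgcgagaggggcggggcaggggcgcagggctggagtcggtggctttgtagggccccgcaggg
BNIP3: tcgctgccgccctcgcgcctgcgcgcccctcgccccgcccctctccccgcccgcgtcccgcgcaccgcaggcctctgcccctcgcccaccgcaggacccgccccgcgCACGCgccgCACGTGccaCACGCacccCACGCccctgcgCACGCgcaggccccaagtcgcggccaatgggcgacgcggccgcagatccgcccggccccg
ANGPTL4: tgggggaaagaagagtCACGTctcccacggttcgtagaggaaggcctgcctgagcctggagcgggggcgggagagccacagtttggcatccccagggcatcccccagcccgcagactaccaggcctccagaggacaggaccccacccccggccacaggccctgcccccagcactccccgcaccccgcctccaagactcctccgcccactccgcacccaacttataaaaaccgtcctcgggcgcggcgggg
CA12: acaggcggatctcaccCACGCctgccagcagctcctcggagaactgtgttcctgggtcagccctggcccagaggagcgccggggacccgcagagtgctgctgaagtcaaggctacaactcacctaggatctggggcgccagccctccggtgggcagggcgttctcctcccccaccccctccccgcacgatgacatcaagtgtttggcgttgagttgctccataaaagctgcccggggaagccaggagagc
BNIP3 had the most matches of those shown, 6 in its 250 bases, with the nearest beginning 104 bases before the start site. CA9, P4HA1, ANGPTL4 and CA12 had 1 match each, and P4HA2, TPI1 and SLC16A3 had 0. The single CA9 match began 18 bases before the start site, that of P4HA1 86 bases, and those of ANGPTL4 and CA12 234 bases before it. At least 1 match was present in 22 of the 34 members (64.7%), in 43.2% of all 35116 promoters of this length and in 54.3% of the 15535 promoters of tested genes. Each member was counted with 1 promoter, whereas the sets of all promoters and of tested genes hold several for some genes. Among members that were highest in replicate 1 of both lines, 14 of 21 held a match (66.7%), against 8 of the 13 others (61.5%).

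Levels can be set side by side between genes only per length, so normalised counts were divided by the length in kb of the canonical GENCODE 44 transcript. On this scale 4 glycolytic enzymes stood highest. GAPDH, which oxidises glyceraldehyde 3-phosphate, led with 139017 ± 7680 normalised counts per kb in WT (SD, n = 3). ENO1 (enolase) followed with 62238 ± 4553 per kb, PKM (pyruvate kinase) with 53272 ± 2824 per kb and ALDOA (aldolase) with 34981 ± 2496 per kb. The ENO1 and PKM ranges, 57091 to 71796 and 50303 to 65660 per kb over the 6 libraries, overlapped, and the other neighbours in this order of 4 did not. TPI1, the fifth, lay at 21877 to 37143 per kb and overlapped ALDOA, at 30698 to 38656 per kb. At the lower end, EGLN3, a prolyl hydroxylase that HIF induces, was at 52.5 ± 15.1 per kb in WT, beside ANGPTL4 at 57.1 ± 45.9 and CA12 at 86.5 ± 38.1 per kb. These 3 overlapped each other.

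Paralogs kept their order in all 6 libraries. HK1 was 4.43 to 7.07 times as high per kb as HK2, the hexokinase that HIF induces. ALDOA exceeded ALDOC 29.6-fold to 101-fold, ENO1 exceeded ENO2 16.7-fold to 23.4-fold, and SLC2A1, the main glucose transporter of RPE, exceeded SLC2A3 29.1-fold to 54.6-fold, all per kb. Among the phosphofructokinases PFKP was 1.26 to 2.47 times PFKL per kb. HIF1A exceeded EPAS1, which encodes HIF-2 alpha, 5.14-fold to 16.4-fold per kb, with the highest ratio in WT replicate 1. CA9 exceeded CA12, the other membrane-bound carbonic anhydrase, 60.1-fold to 66.0-fold per kb in the replicate 1 libraries but 15.4-fold to 16.5-fold in the other 4. Together the 15 glycolytic enzymes took 1.63% to 1.96% of all normalised counts of a library. Processed pseudogenes of GAPDH, ENO1, PGK1, PGAM1 and TPI1 share sequence with them, and how reads were divided among such copies cannot be seen in the table.

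Between POLDIP2 KO and WT, no member was called, against 25 of all genes tested (0.17%). At an unadjusted p below 0.05 there was 1 member, EPAS1, against 6.48% of all genes (3% in this direction), and no member was called by edgeR or DESeq2 on recovered reads, each with 1 member at an unadjusted p below 0.05. The members were slightly higher in KO on balance. Their median log2 fold change was 0.11, against -0.00029 for all genes, and 31 of 37 lay above 0, against 49.9% of all genes. The 3 pairs of equal replicate number gave medians of 0.13, 0.04 and 0.23. Without KO replicate 1 only 20 of 37 lay above 0 and the median was 0.036. With quantile normalisation 28 lay above 0 and the median was 0.059. Without WT replicate 1 the median was 0.25, without KO replicate 2 it was 0.27, and with replicate 1 left out of both lines it was 0.11 with 31 above 0, an alternative chosen after seeing the data. In all 3 pairs 14 members were higher in KO, against 17% of all genes, and 1 was lower, SLC2A3, against 15.7%, although its replicate 3 pair differed by only -0.0041.

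**Figure D1:**
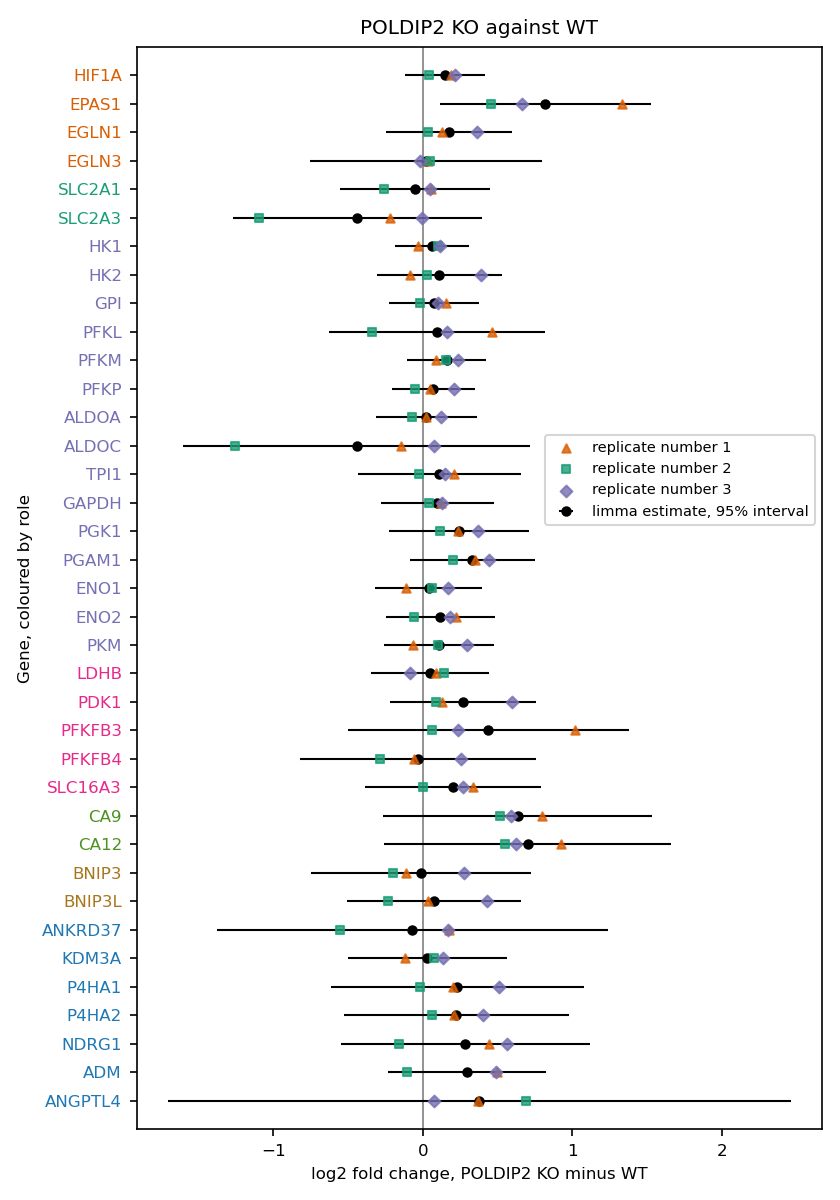
Log2 fold change of POLDIP2 KO over WT for each of the 37 genes (names coloured by role). Black points and bars give the limma estimate with its 95% interval, and coloured symbols give the difference within each replicate number. The EPAS1 interval, 0.11 to 1.52, lies above 0, and 31 of 37 estimates lie to the right of 0.

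EPAS1 (chromosome 2, 46293667 to 46386697, GENCODE 44 on GRCh38) encodes the HIF-2 alpha subunit. It stood at 3144, 7305 and 5941 normalised counts in WT and at 7918, 10024 and 9422 in KO. The KO libraries all lay above the WT libraries, and it was the only member whose lines did not overlap, against 5.46% of all genes that did so in this direction and 5.44% in the other. Its log2 fold change was 0.82 (95% interval 0.11 to 1.52), and the limma p of 0.029 became 0.664 after Benjamini-Hochberg adjustment. WT replicate 1 was the lowest library, and without replicate 1 in either line the log2 fold change was 0.56. HIF1A, the HIF-1 alpha subunit, stood at 39506, 38409 and 38419 in WT and at 44916, 39452 and 44604 in KO. Each KO library was above its WT partner, but KO replicate 2 lay within the WT range, and the log2 fold change was 0.15 (-0.12 to 0.41).

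Among the hydroxylases that destabilise HIF, EGLN1 was at 2083, 1564 and 1540 normalised counts in WT and at 2276, 1605 and 1983 in KO. Its lines overlapped, with a log2 fold change of 0.18 (-0.24 to 0.60). EGLN3 was at 95.3 to 172 in WT and at 98.5 to 176 in KO, so its ranges nearly coincided. The glucose transporters were the only role with no member above 0 in the comparison of the lines. SLC2A3 was at 945, 823 and 473 normalised counts in WT and at 811, 384 and 472 in KO, where replicates 1 and 2 were lower than their WT partners and replicate 3 was level with it. Its log2 fold change was -0.44 (-1.27 to 0.39). SLC2A1 had a log2 fold change of -0.05 (-0.56 to 0.45).

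Of the 15 glycolytic enzymes, 14 had a log2 fold change above 0 and none was called. Their median was 0.10. PGAM1, the phosphoglycerate mutase, had the smallest p of them, at 39473, 30435 and 34095 normalised counts in WT and 50290, 35018 and 46305 in KO. KO was higher within every replicate number while the lines overlapped, and its log2 fold change was 0.33 (-0.09 to 0.75). PFKM, the muscle-type phosphofructokinase, was at 3244, 3653 and 3126 in WT and at 3453, 4075 and 3679 in KO. Its lines overlapped as well, with a log2 fold change of 0.16 (-0.10 to 0.42). PGK1, which makes the first ATP of the pathway, was at 37677, 27393 and 27462 in WT and at 44436, 29616 and 35503 in KO. In both lines replicate 1 was the highest, and the log2 fold change was 0.24 (-0.23 to 0.71). ALDOC, the only enzyme below 0, had a log2 fold change of -0.44 (-1.60 to 0.72), with KO replicate 2 the lowest library at 488 normalised counts.

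Genes that steer pyruvate and lactate gave no call between the lines. PDK1, a kinase that inhibits pyruvate dehydrogenase, was at 4946, 3446 and 3339 normalised counts in WT and at 5404, 3660 and 5044 in KO. Higher values stood in KO for every replicate number, but the ranges overlapped (log2 fold change 0.27, -0.22 to 0.76). PFKFB3, which makes the activator of phosphofructokinase, was at 3775, 2392 and 2947 in WT and at 7643, 2501 and 3464 in KO. KO replicate 1 stood well above the other 5 libraries. Its log2 fold change of 0.44 (-0.50 to 1.38) was 0.15 without replicate 1 in either line. LDHB, the lactate dehydrogenase subunit that favours pyruvate, differed by 0.05 (-0.35 to 0.44).

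The carbonic anhydrases, listed under pH regulation, were the role with the highest median, 0.67 over 2 genes. CA12 was at 283, 552 and 747 normalised counts in WT and at 540, 808 and 1152 in KO. Within each replicate number KO was higher, by 0.93, 0.55 and 0.62 on the log2 scale, although the lines overlapped. Its log2 fold change was 0.70 (-0.26 to 1.66). CA9 differed by 0.80, 0.52 and 0.59 within the 3 replicate numbers, and its log2 fold change was 0.63 (-0.27 to 1.53). With the replicate number as a block, 5 members had an unadjusted limma p below 0.05 (EPAS1, PGK1, PGAM1, CA9 and CA12), against 11.1% of all genes, and the block called 30 genes (0.204%), none of them a member. The smallest adjusted p of a member in that blocked limma fit, with Benjamini-Hochberg adjustment, was that of CA9, 0.0877.

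The remaining targets of HIF were not called, and their intervals included 0. ADM, the vasodilator peptide adrenomedullin, was at 738, 636 and 569 normalised counts in WT and at 1040, 590 and 800 in KO. KO replicate 2 fell among the WT libraries, and the log2 fold change was 0.29 (-0.24 to 0.82). BNIP3 and BNIP3L, which tag mitochondria for removal, differed by -0.01 (-0.75 to 0.72) and 0.08 (-0.50 to 0.66). The widest interval was that of ANGPTL4, 0.38 (-1.71 to 2.46).

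Most members stood highest in replicate 1 of both lines. With the line kept in the fit, the F test over the 3 numbers called 2 members, CA9 and ANGPTL4 (5.41% of 37), against 134 of all genes (0.913%). At an unadjusted p below 0.05 it reached 25 members (67.6%) against 18.9% of all genes. Of these, 21 were higher in replicate 1 than in the mean of replicates 2 and 3, against 10.6% of all genes, and 4 were lower, against 8.34%. Replicate 1 was the highest of the 3 in both lines for 24 members, against 22% of all genes. For 17 members both replicate 1 libraries lay above all other 4 (15.8% of all genes), and for 4 they lay below (15.1%). Replicate 2 was the lowest in both lines for 22 members, against 13.3% of all genes. The 2 calls rest on all 6 libraries: leaving out any 1 of them left 0 members called by limma, with 14 to 25 at an unadjusted p below 0.05. edgeR called 0 members, with 25 at an unadjusted p below 0.05, against 2715 of all 14684 genes. DESeq2 called 21 members, with 28 at an unadjusted p below 0.05, against 2869 of all genes. Its calls among all genes rose as well, as counted in the last section.

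**Figure D2:**
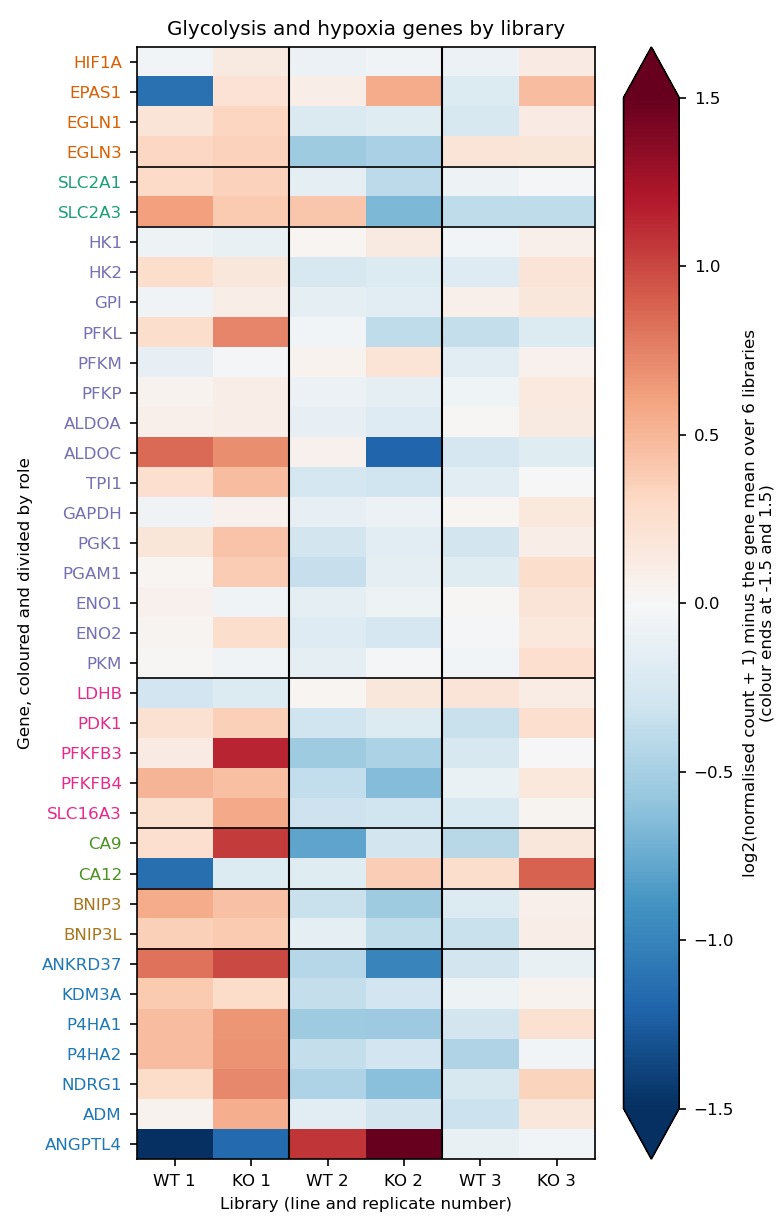
Each cell gives log2(normalised count + 1) of 1 gene in 1 library minus the mean of that gene over the 6 libraries (colour scale, ends at -1.5 and 1.5). Libraries are grouped by replicate number and genes by role, and the replicate 1 columns are warm for most genes, with EPAS1, CA12, ANGPTL4, LDHB and HK1 as the 5 that were lowest there in both lines.

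A contrast of replicate 1 with the mean of replicates 2 and 3 called 8 members (21.6%), against 484 of all genes (3.3%). CA9, P4HA2, P4HA1, TPI1, SLC16A3 and BNIP3 were higher in replicate 1 (2.08% of all genes called in this direction), and ANGPTL4 and CA12 were lower (1.22%). The median difference of the 37 members was 0.45 on the log2 scale, 0.46 in WT and 0.39 in KO, against -0.00070 for all genes. By role it was 0.75 for the other HIF targets, 0.66 for the mitophagy receptors, 0.62 for glucose uptake, 0.60 for flux control and lactate, 0.23 for oxygen sensing, 0.13 for the glycolytic enzymes and -0.015 for pH regulation, where CA9 and CA12 lay on opposite sides of 0.

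CA9 (chromosome 9, 35673928 to 35681159) encodes carbonic anhydrase IX, a cell surface enzyme widely used as a marker of HIF-1 activity. It stood at 4741, 2309 and 2978 normalised counts in WT and at 8234, 3301 and 4486 in KO. Both replicate 1 libraries lay above the other 4, although WT replicate 1 and KO replicate 3 were close. Replicate 1 exceeded the others by 0.98 on the log2 scale (0.73 to 1.22), 1.97-fold, with an adjusted p of 0.0407 by the limma F test with Benjamini-Hochberg adjustment. CA12, of the same family, was at 283 and 540 in replicate 1 of WT and KO, at 552 and 808 in replicate 2 and at 747 and 1152 in replicate 3. Its replicate 1 libraries were the lowest of all, and the difference was -1.01 (-1.35 to -0.66). The limma contrast gave an adjusted p of 0.0333 and the F test 0.0655.

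ANGPTL4 (chromosome 19, 8363289 to 8374370) encodes a secreted inhibitor of lipoprotein lipase that both HIF and the fatty acid receptors PPAR induce. It was low, at 32.1, 201 and 87.7 normalised counts in WT and at 41.8, 324 and 92.3 in KO. In both lines replicate 1 was the lowest and replicate 2 the highest, with no overlap between the replicate numbers. The difference of replicate 1 was -2.02 (-2.63 to -1.40), a ratio of 0.247, with an adjusted p of 0.0478 in the limma F test with Benjamini-Hochberg adjustment.

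P4HA1 and P4HA2 encode the catalytic subunits of collagen prolyl 4-hydroxylase. P4HA2 was at 4783, 2715 and 2543 normalised counts in WT and at 5522, 2838 and 3360 in KO. P4HA1 was at 8618, 4343 and 5168 in WT and at 9903, 4289 and 7359 in KO. For both genes replicate 1 stood above the other 4 libraries, by 0.85 (0.59 to 1.11) for P4HA2 and by 0.84 (0.52 to 1.16) for P4HA1.

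ANKRD37, an ankyrin repeat protein that HIF-1 induces, showed the widest upward gap, at 244, 102 and 114 normalised counts in WT and 276, 69.2 and 128 in KO. Replicate 1 exceeded the others by 1.35 (0.74 to 1.97), with an adjusted p of 0.0572 in the limma contrast. KDM3A, a histone H3 lysine demethylase, was at 3169, 1869 and 2274 in WT and at 2911, 1970 and 2501 in KO. Its replicate 1 libraries were above the other 4 by 0.51 (0.25 to 0.76). NDRG1, a stress-induced gene, and ADM were also highest in replicate 1 of both lines.

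BNIP3, the mitophagy receptor, was at 9357, 5052 and 5532 normalised counts in WT and at 8666, 4398 and 6686 in KO. Replicate 1 stood above all other libraries by 0.75 (0.44 to 1.06). SLC16A3, the lactate exporter MCT4, was at 24642, 16923 and 17819 in WT and at 31102, 16967 and 21457 in KO. In both lines replicate 1 was again the highest, by 0.60 (0.36 to 0.85), and the libraries of replicate 2 were almost equal. PFKFB4, a sister enzyme of PFKFB3, was at 1057, 576 and 696 in WT and at 1015, 472 and 830 in KO. The gap of replicate 1 was 0.72 (0.34 to 1.09) for PFKFB4 and 0.94 (0.42 to 1.47) for PFKFB3.

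**Figure D3:**
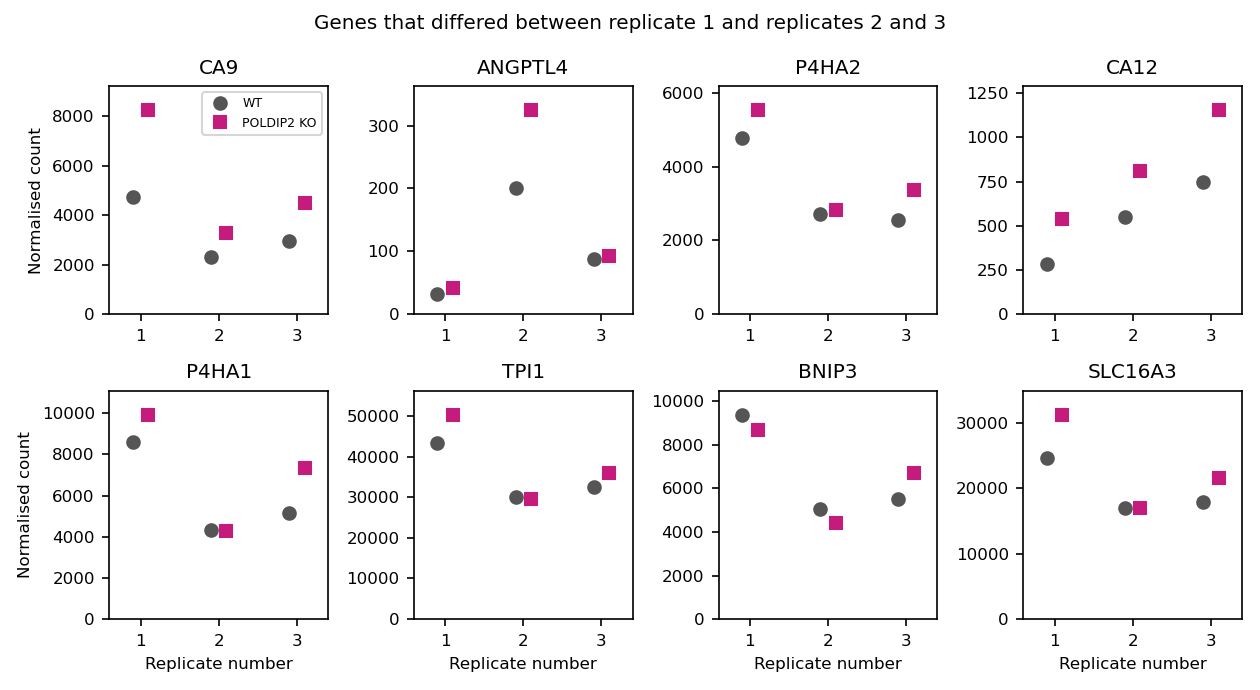
Normalised counts of the 8 genes called between replicate 1 and replicates 2 and 3, by replicate number on the x axis, with 1 point a library (grey circles, WT; magenta squares, POLDIP2 KO; each panel has its own axis from 0). ANGPTL4 and CA12 are lowest in replicate 1 and the other 6 genes are highest there.

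Within glycolysis the enzymes differed. TPI1, triose phosphate isomerase, was the only one called by the contrast, at 43360, 30111 and 32594 normalised counts in WT and 50180, 29555 and 36049 in KO. Its replicate 1 libraries were above the other 4 by 0.54 (0.34 to 0.75). The gap was 0.46 (0.25 to 0.67) for PGK1, 0.74 (0.32 to 1.17) for PFKL and 1.17 (0.45 to 1.89) for ALDOC. For the 4 enzymes with the highest levels per kb the intervals included 0. The difference of replicate 1 was 0.01 (-0.16 to 0.19) for GAPDH, 0.01 (-0.21 to 0.22) for ENO1, -0.03 (-0.27 to 0.21) for PKM and 0.13 (-0.06 to 0.32) for ALDOA. With quantile normalisation the difference of GAPDH was -0.018 and that of PKM 0.0096. This contrast averages replicates 2 and 3, which were not alike. Replicate 2 was the lowest in both lines for 10 of 15 enzymes (66.7%), GAPDH, ENO1 and ALDOA among them, against 13.3% of all genes. For 8 of 15 (53.3%) both replicate 2 libraries lay below the other 4, against 8.25% of all genes. The median difference of replicate 3 from replicate 2 was 0.20 over the enzymes. SLC2A1 was higher in replicate 1 by 0.48 (0.23 to 0.72). For LDHB the difference was -0.37 (-0.58 to -0.17) and for EPAS1 -0.68 (-1.15 to -0.21). HIF1A differed by 0.07 (-0.12 to 0.26), and by -0.085 with quantile normalisation.

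The 2 lines gave this difference separately. Across the 37 members the difference of replicate 1 in WT and that in KO had a Pearson r of 0.913, against 0.315 across all 14684 genes tested. The points are genes of the same 6 libraries and are not independent, so r is given as a description.

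**Figure D4:**
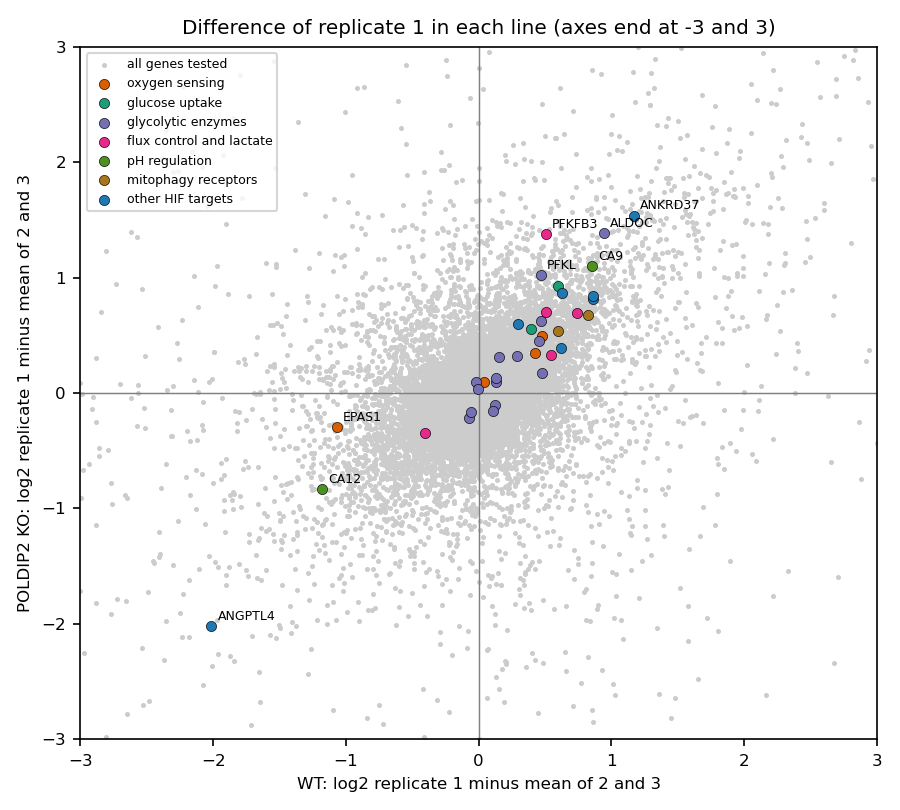
Log2 difference of replicate 1 from the mean of replicates 2 and 3 in WT (x axis) and in POLDIP2 KO (y axis). Grey points are the genes tested that lie within the axes (-3 to 3), and coloured points are the 37 genes by role. ANKRD37, ALDOC, PFKFB3 and CA9 lie at the upper right, and ANGPTL4, near -2.02 in both lines, lies at the lower left.

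Markers of other cell types also differed by replicate number, and COL1A1 was higher in KO within every replicate number. Of 4 tested fibroblast markers, 3 were highest in replicate 1 of both lines, against 22% of all genes. COL1A1 (type I collagen) was at 2147, 320 and 677 normalised counts in WT and at 6956, 760 and 1953 in KO (limma F test with Benjamini-Hochberg adjustment, adjusted p = 0.0208). The COL1A1 differences of KO from WT were 1.70, 1.24 and 1.53 on the log2 scale in replicates 1, 2 and 3. Its log2 fold change between the lines was 1.49 (-0.70 to 3.68), with a limma Benjamini-Hochberg adjusted p of 0.981 without and 0.0436 with the replicate block. The median log2 fold change of KO over WT was 0.81 over the 4 fibroblast markers, with single genes from -0.69 to 1.61. The direction of this median was not shared by the replicate numbers. It was 1.46 in replicate 1, -1.02 in replicate 2 and 0.46 in replicate 3. PDGFRB was at 4623, 1778 and 2223 in WT and at 6572, 1293 and 2880 in KO (adjusted p = 0.0712 in the limma F test). The fibroblast marker DCN was at 13.5 normalised counts or less in every library, and of the leukocyte and endothelial markers PTPRC, CD14, CD3E and CDH5 were at 6.95 or less. Summed over its list, the fibroblast markers were at 6809 and 14225 normalised counts in replicate 1 and at 2069 to 4852 in the other 4 libraries. Most of this sum was COL1A1 and PDGFRB. The endothelial sum was 138 to 199 in replicate 1 and 39.7 to 95.2 elsewhere. The leukocyte sum, nearly all CD68, was 1683 to 1877 in replicate 1 and 1943 to 2218 elsewhere. The RPE sum, most of it KRT8 and KRT18, was 92172 to 100241 in replicate 1 and 72579 to 83821 elsewhere. Over the 9 tested RPE markers the difference of replicate 1 ran from -2.02 to 1.11. Its median was 0.083, with -0.25 in WT and 0.21 in KO. All libraries come from cultures of the ARPE-19 line, so these marker names do not mean that other cell types were present. In bulk RNA, fewer cells with a transcript and less of it per cell cannot be told apart. The part of these genes in the result was not tested.

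Wider lists of the same pathways held 85 genes, of which 83 were in the table and 68 were tested. None was called between the lines, and 3 (4.41%) had an unadjusted limma p below 0.05, against 6.48% of all genes. With the replicate block 15 (22.1%) did, against 11.1% of all genes, and 0 were called. VHL, which marks hydroxylated HIF for degradation, was at 2127, 2184 and 2069 normalised counts in WT and at 2513, 2660 and 2535 in KO. All KO libraries were above WT, and its log2 fold change was 0.27 (0.06 to 0.49). BHLHE41, a HIF-induced repressor of the clock, had 0.62 (0.13 to 1.11). PFKFB2, another isoform of the PFKFB family, was at 1902, 2298 and 1843 in WT and at 1556, 1318 and 1467 in KO, so all KO libraries were lower, with a log2 fold change of -0.47 (-0.78 to -0.17). CITED2, which competes with HIF for its coactivator, differed by -0.44 (-0.90 to 0.01).

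By replicate number the F test called 4 of the 68 (5.88%), against 0.913% of all genes. ARNT2, a partner of the HIF alpha subunits, was at 2118, 999 and 1140 normalised counts in WT and at 3560, 1771 and 1799 in KO. LOX and LOXL2, which crosslink collagen, were higher in replicate 1 by 1.17 (0.99 to 1.36) and 0.88 (0.67 to 1.08). MIF was listed at 5904 and 4619 normalised counts in replicate 1 of WT and KO and at 0 in the other 4 libraries, so no fold is given. It belongs to the 5 genes described earlier that were at 0 outside replicate 1, and it is included in the counts of this paragraph. Replicate 1 was the highest in both lines for 18 of 32 wider HIF targets, 8 of 24 further genes of glycolysis and 4 of 12 further HIF regulators, against 22% of all genes.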

How the data were processed

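RNA-seq libraries of 3 WT and 3 POLDIP2 KO cultures of ARPE-19 were analysed from the table of normalised counts. The signal in each column was deposited by the authors as gene counts divided by a size factor, and the submitters' processing notes name Salmon 1.8 and DESeq2 1.34.0. All columns were used, so 0 were left out. Symbols came from GENCODE 44, which named 34152 of the 37902 genes. Dividing each column by its smallest value above 0 recovered whole reads for all values within 0.001, but in WT replicate 2 and POLDIP2 KO replicate 3 that step is close to 1, so the recovery says little there. Count tests were therefore run as alternatives only.

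log2(normalised count + 1) was fitted with limma 3.58.1 in R 4.3.3 (lmFit, eBayes with trend) where the mean over libraries reached 10, with Benjamini-Hochberg adjustment over all 14684 such genes. POLDIP2 KO was compared with WT without a block. The replicate number was tested with a moderated F test with the line in the fit. Deviations of equally numbered libraries from their line means correlated at 0.315, 0.137 and 0.129 and those of unequally numbered ones at -0.259 to 0.147, the highest for WT 3 with KO 2. Every equally numbered pair was above 0.1, but so was WT 3 with KO 2, which exceeded the pairs of replicates 2 and 3. Only the pair of replicate 1 stood above all unequal pairs. The numbers of the labels were still taken to pair the libraries. The fit with the replicate block is given where it changes a count. The alternatives used edgeR 4.0.16, DESeq2 1.42.0, other pseudocounts, filters, normalisations and variance priors, and leaving out each library. The p values measure only the spread between these cultures. The code was tested on simulated data. Figures were drawn with Python 3.11.15 and matplotlib 3.10.9.

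The members and lists were chosen with earlier results of these data known. Values in every library are given for members called in either comparison, for the 12 with the smallest p in each, and for those whose lines did not overlap. Of the wider lists, called genes and the 2 with the smallest p in each direction between the lines are named.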

Additional observations from a re-analysis of the deposited data

Results flagged for a closer look

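PKM, the pyruvate kinase that ends glycolysis, was the only member whose replicate 1 library was the highest of WT and the lowest of POLDIP2 KO. It differed from the mean of replicates 2 and 3 by 0.11 on the log2 scale in WT and by -0.16 in KO. The PKM libraries were at 128902, 115948 and 123528 normalised counts in WT and at 122989, 124610 and 151347 in KO. The difference between the lines was not tested, and 6.61% of all genes showed the same arrangement.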

How the results depend on the processing

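No alternative called a member between the lines, with 0 to 5 at an unadjusted limma p below 0.05 and the most with the replicate block, and the block called 0 members. The causes of the changes given here were not tested. The genes called between the lines, 25, became 30 with the replicate block, 16 with a mean of at least 50, 277 with DESeq2, 5 with edgeR and the replicate block, 5 without replicate 1 in either line and 0 to 10 without 1 library. The call of POLDIP2 itself was lost without WT replicate 2 or 3 or KO replicate 2 or 3 (adjusted p 0.0529 to 0.0809 by limma with Benjamini-Hochberg adjustment), with a log2 fold change of -2.07 to -1.91. The lowest member value, 32.1 normalised counts for ANGPTL4 in WT replicate 1, was above the 3 reads taken as the floor. The members' median between the lines was 0.036 to 0.27 without 1 library.

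Between replicate numbers, the genes called, 134, became 11 without trend, 71 with edgeR, 1509 with DESeq2, 53 with no line term, 484 with the contrast of replicate 1 and 0 to 33 without 1 library. The members called, 2, became 1 with no filter, 1 with a mean of at least 50 and 1 with quantile normalisation, each time CA9. They became 0 without trend, 0 with edgeR, 0 with no line term and 0 to 0 without 1 library, where 14 to 25 had an unadjusted p below 0.05 over these alternatives, and 21 with DESeq2 and 8 with the contrast. The members' median difference of replicate 1 was 0.39 with quantile normalisation and 0.37 to 0.51 without 1 library.

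The sign of the following log2 differences between the lines changed. With quantile normalisation ALDOA was at -0.11, ENO1 at -0.043 and PKM at -0.023, and ANKRD37 was at 0.033 with edgeR and 0.037 with DESeq2. Without replicate 1 in either line BNIP3 was at 0.037 and PFKL at -0.089. Without 1 library the ranges were -0.039 to 0.13 for ALDOA, -0.90 to 0.042 for ALDOC, -0.41 to 1.05 for ANGPTL4, -0.58 to 0.41 for ANKRD37, -0.24 to 0.26 for BNIP3, -0.10 to 0.29 for BNIP3L, -0.24 to 0.27 for EGLN3, -0.047 to 0.088 for ENO1, -0.14 to 0.24 for KDM3A, -0.088 to 0.16 for LDHB, -0.0042 to 0.67 for NDRG1, -0.042 to 0.56 for P4HA1, -0.055 to 0.51 for P4HA2, -0.020 to 0.79 for PFKFB3, -0.26 to 0.29 for PFKFB4, -0.24 to 0.31 for PFKL, -0.032 to 0.40 for SLC16A3, -0.24 to 0.13 for SLC2A1 and -0.10 to 0.28 for TPI1. For the difference of replicate 1, quantile normalisation gave -0.018 for GAPDH, -0.029 for GPI, -0.085 for HIF1A and 0.0096 for PKM. Without 1 library it was -0.11 to 0.12 for ENO1, -0.0078 to 0.033 for GAPDH, -0.019 to 0.095 for GPI and -0.16 to 0.11 for PKM.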
